A study of Mus musculus with 24 samples.

Results

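Macrophages that had lost TBK1 were compared directly with macrophages that had lost IKKe, both after 8 h of R837. The comparison takes the 6 libraries, of 24 in the series, whose titles read TBK1-cKD ∆control + R837 8h (3 libraries) or TBK1-WT ∆IKKe + R837 8h (3 libraries). They are called TBK1-cKD and IKKe knockout below. TBK1-cKD cells carried the altered Tbk1 gene and an Ikbke gene that the titles mark as control, and IKKe knockout cells carried wild-type Tbk1 and the Ikbke knockout. Neither group was fully wild type, so a gene that is higher in one could equally be described as lower in the other. For reference, the same 2 genotypes without treatment (3 libraries each) and TBK1-WT ∆control after R837 (3 libraries) are also given. All cells were bone marrow-derived macrophages, grown from mouse marrow with M-CSF at 50 ng/ml, replated on day 5 and kept for 2 further days, and the labels give 3 individual mice as the biological replicates. The series record spells out cKD as conditional knockout. The allele, the Cre driver and its promoter, and the way in which IKKe was removed are not described. The strain C57BL/6N stands on every record beside the words wild-type, whatever the genotype, so the genetic background of the altered animals is not known from the labels.

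TBK1 and IKKe are related kinases that phosphorylate the transcription factors IRF3 and IRF7, which start the production of type I interferon, and that also feed back on the canonical IkB kinases that drive NF-kB. R837 (imiquimod) is a synthetic agonist of Toll-like receptor 7, an endosomal sensor of single-stranded RNA whose signal passes through MyD88. Type I interferon acts back on the same cells through a receptor whose signal leads transcription factors to a DNA element called the interferon-stimulated response element (ISRE) in the promoters of antiviral genes such as those of viperin and the IFIT proteins.

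The sum of gene counts was 37.6, 19.7 and 29.3 M in TBK1-cKD replicates 1 to 3 and 30.6, 28 and 30.7 M in IKKe knockout replicates 1 to 3, within a range of 19.7 to 41.3 M over the series (M, mega counts). Replicate numbers follow the order of the records, since the titles carry none. TBK1-cKD replicate 2 stood apart from the rest. It had 14226 genes with a count, against 17592 to 18049 in the other 5 libraries, and 1409 genes with 1 to 5 counts, against 3980 to 4267. Of the 14681 genes tested, 1601 had no count in it, against 152 and 202 in the other 2 libraries of its group and 167 to 194 in IKKe knockout. CPM scale the count of a gene to the gene count sum of its library. Values of log2 CPM also carry the TMM scaling of edgeR and an offset of 0.5. Across genes, the log2 CPM of TBK1-cKD replicate 2 correlated at r = 0.9479 with replicate 1 and 0.9457 with replicate 3. Replicates 1 and 3 correlated at 0.9898. These values are over genes that share libraries and are not independent. Results are therefore given with and without TBK1-cKD replicate 2. Nuclear RNA (the mean of Malat1, Neat1 and Xist) was at 5.25 to 5.57 log2 CPM in the 6 libraries, whereas the untreated libraries and TBK1-WT control replicate 1 after R837 had 8.94 to 9.46. The summed level of 8 macrophage markers (Csf1r, Adgre1, Cd68, Itgam, Mertk, Msr1, Lyz2 and Spi1) was 24065 to 25622 CPM in TBK1-cKD and 23030 to 23962 CPM in IKKe knockout, and none of the 8 was called different.

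Log2 changes are TBK1-cKD over IKKe knockout with their standard error, so that a positive value is higher in TBK1-cKD. Adjusted p values come from the quasi-likelihood test of edgeR with Benjamini-Hochberg adjustment over 14681 genes, and a gene is called at an adjusted p under 0.05. After R837, 1042 genes were called (7.1%), of which 550 were higher in TBK1-cKD (3.75%) and 492 lower (3.35%). A change of 2-fold or more was reached by 94 of the higher genes (0.64%) and 102 of the lower genes (0.695%). The median log2 change over all genes was -0.02. In 1016 of the called genes (6.92% of all tested) the 3 libraries of one group lay all above the 3 of the other. Such separation was common, since it held in 3764 of all tested genes (25.6%), called or not. Without TBK1-cKD replicate 2, 873 genes were called (5.86% of 14885 tested), 492 higher (3.31%) and 381 lower (2.56%), and 724 of the 1042 kept their call and direction, with no change of sign among the 1042. Of the 196 genes called at 2-fold or more, 138 kept the call without that library. Leaving out IKKe knockout replicate 1 or replicate 3 lowered the count to 688 and 656. A fit of the 12 R837 libraries alone called 375 genes. It ended the calls of genes described here, among them Apoe, B3gnt7, Bcl3, Bsn, Bst2, Ccl2, Ccl22, Dcstamp, Ddx58, H2-K1, Ifi27l2a, Ifih1, Ifitm2, Ifitm3, Ikbke, Mlkl, Nfe2l2, Nfkbia, P2ry2, Mdm2, Pomgnt2, Sqstm1, Tlr3, Tlr13 and Tnf.

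**Figure D1:**
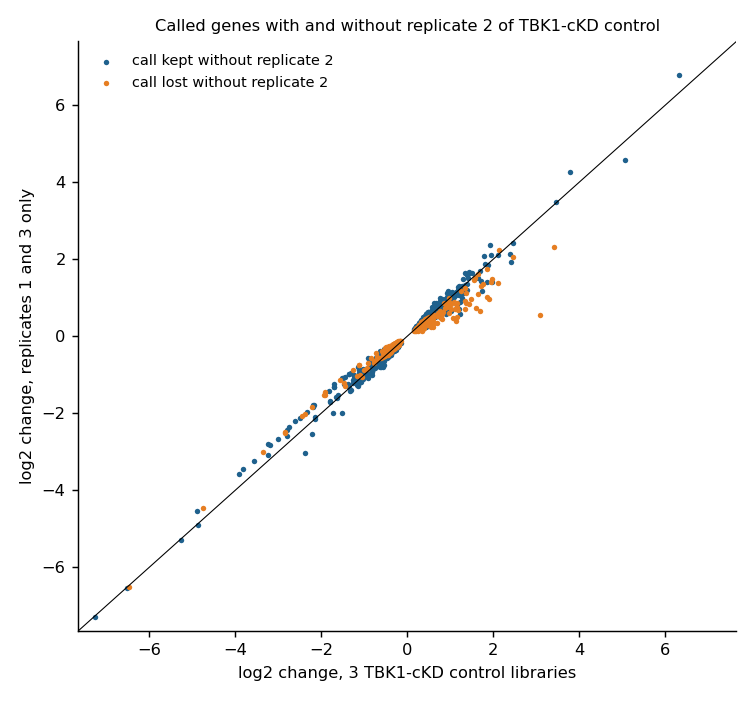
Log2 change (TBK1-cKD over IKKe knockout after R837) of the 1042 called genes, fitted with all 3 TBK1-cKD libraries on the x axis and with replicates 1 and 3 only on the y axis. Blue points kept their call (724 genes), orange points lost it, and all lie on the same side of 0 in both fits.

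The 2 kinase genes themselves were read first. Ikbke (ENSMUSG00000042349, GRCm38 chromosome 1 from 131254343 to 131279606, minus strand) was at 217, 218 and 224 CPM in TBK1-cKD and at 69.8, 64.1 and 72.7 CPM in IKKe knockout. The groups were well apart and each was tight, and the difference was 1.68 ± 0.30 log2 (adjusted p = 0.0012, 6.39e-17 to 0.0522 over the alternatives, the highest in a fit of the 12 R837 libraries alone). Without R837 the levels were 80, 82.1 and 83.4 CPM in TBK1-cKD and 41, 38.9 and 39.1 CPM in IKKe knockout, a difference of 1.07 ± 0.30 (adjusted p = 0.0412). Ikbke RNA was thus lower in the cells labelled IKKe knockout in both conditions, but was still measured there, and it was higher after R837 than before in both genotypes. TBK1-WT control cells after R837 had 401, 206 and 215 CPM, the first of these in the library of high nuclear RNA level.

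Tbk1 (ENSMUSG00000020115, chromosome 10 from 121546455 to 121586787, minus strand) was at 93.3, 85.4 and 96.9 CPM in TBK1-cKD and at 108, 114 and 106 CPM in IKKe knockout after R837. All 3 TBK1-cKD libraries were below all 3 IKKe knockout libraries. The difference of -0.24 ± 0.07 log2 missed the threshold (adjusted p = 0.0528, 0.000175 to 0.339 over the alternatives, and 0.225 without TBK1-cKD replicate 2). Untreated cells had 85.4, 82.4 and 80.3 CPM against 117, 116 and 113 CPM, where Tbk1 was lower in TBK1-cKD by a log2 change of -0.46 ± 0.07 (adjusted p = 0.000419). Per length, Tbk1 was at 27.7 ± 1.8 RPKM (SD, n = 3) in TBK1-cKD and 33 ± 1.2 RPKM in IKKe knockout after R837, and Ikbke at 60.5 ± 1 and 19 ± 1.2 RPKM, so Ikbke was the more abundant of the 2 transcripts in TBK1-cKD and the less abundant in IKKe knockout. Protein was not measured, and a transcript of either gene can persist when the altered exons remove its function.

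Among 18 tested genes of the IKK-related kinases and their adaptors, Ikbke and Sqstm1 were called, both higher in TBK1-cKD, beside 3.75% higher over all genes. Ikbke is itself the gene altered in IKKe knockout, so its call does not speak for the list, which leaves Sqstm1 as the 1 other call. Sqstm1, which encodes the autophagy receptor p62, was at 870, 756 and 896 CPM against 709, 651 and 706 CPM (0.29 ± 0.06 log2, adjusted p = 0.00561). Among 17 genes of the canonical IKK complex, TAK1 and the linear ubiquitin ligase, Ikbkg, which encodes the regulatory subunit NEMO, was the one called, a share near the 7.1% called over all genes. Its 196, 185 and 190 CPM in TBK1-cKD lay above the 154, 160 and 152 CPM of IKKe knockout (0.30 ± 0.05, adjusted p = 0.000689), with 0.21 untreated (adjusted p = 0.0133). N4bp1 and Casp8, which the title of the series names, were not called. N4bp1, a suppressor of cytokine production cleaved by caspase-8, was at 298, 290 and 319 CPM against 317, 300 and 312 CPM (-0.03 ± 0.06, adjusted p = 0.851), and the groups overlapped. Casp8 was at 92.4, 98.3 and 106 CPM against 91.1, 92 and 94.5 CPM (0.10 ± 0.06, adjusted p = 0.347). Tlr7, the receptor of R837, did not pass after R837 either (-0.09 ± 0.12, adjusted p = 0.763). Untreated, however, Tlr7 was called lower in TBK1-cKD, at 195, 161 and 173 CPM against 272, 226 and 251 CPM (-0.48 ± 0.12, adjusted p = 0.0147). Whether this lower untreated level affected the response to R837 was not tested.

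The promoters of 4 genes are shown because some interferon-stimulated genes were lower in untreated TBK1-cKD and higher after R837. By call this held in 17 of 105 tested genes of 6 interferon lists, beside 0.279% of all genes. In the same lists 71 genes were called lower untreated, so most of those did not turn round by call. Each is the 250 bases before the transcription start in RefSeq (GRCm38.p6), 5′ to 3′ on the strand of the gene. Capitals mark each match to the ISRE core TTTCNNTTTC on either strand. Rsad2, Cxcl10 and Ifit1 are examples of genes that were lower in untreated TBK1-cKD and higher after R837. Adam19, the gene of largest increase by the rule used for naming, was higher in both conditions. The intervals are chr12:26456453-26456702 for Rsad2 (minus strand), chr5:92348890-92349139 for Cxcl10 (minus strand), chr19:34640639-34640888 for Ifit1 (plus strand) and chr11:46055734-46055983 for Adam19 (plus strand).
Rsad2: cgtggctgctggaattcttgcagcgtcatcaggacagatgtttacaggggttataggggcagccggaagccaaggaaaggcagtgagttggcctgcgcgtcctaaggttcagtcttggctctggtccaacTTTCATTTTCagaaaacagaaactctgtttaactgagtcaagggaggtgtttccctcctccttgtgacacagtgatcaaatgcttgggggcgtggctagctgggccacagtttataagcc
Cxcl10: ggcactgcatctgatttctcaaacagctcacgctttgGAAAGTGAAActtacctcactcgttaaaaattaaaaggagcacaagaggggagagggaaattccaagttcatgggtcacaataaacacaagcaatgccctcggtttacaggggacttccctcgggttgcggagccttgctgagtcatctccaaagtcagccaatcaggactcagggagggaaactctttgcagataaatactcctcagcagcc
Ifit1: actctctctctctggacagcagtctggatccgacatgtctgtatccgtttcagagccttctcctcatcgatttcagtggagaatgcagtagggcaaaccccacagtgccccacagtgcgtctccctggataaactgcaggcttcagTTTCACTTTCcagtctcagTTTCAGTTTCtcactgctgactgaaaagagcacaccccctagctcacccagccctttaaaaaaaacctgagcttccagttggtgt
Adam19: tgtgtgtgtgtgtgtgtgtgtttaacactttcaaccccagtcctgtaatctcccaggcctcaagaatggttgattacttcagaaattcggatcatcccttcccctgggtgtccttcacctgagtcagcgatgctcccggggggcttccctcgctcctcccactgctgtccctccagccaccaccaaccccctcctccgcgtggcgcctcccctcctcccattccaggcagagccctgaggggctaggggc
The window of Rsad2 held 1 core, that of Cxcl10 1 and that of Ifit1 2, and that of Adam19 held none of these letters. The core was present in 286 of the 10118 tested genes with a promoter in the table (2.83%) and in 35 of 82 genes of 6 interferon lists (42.7%). Of the genes that were lower untreated and higher after R837, 12 of 39 with a promoter held it (30.8%), and of those lower in both conditions, 7 of 120 did (5.83%). Among all genes higher after R837 it stood in 22 of 419 (5.25%), and among those lower in 16 of 358 (4.47%). A match is a description of the sequence and not a measured binding site.

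Rsad2, which encodes the antiviral enzyme viperin (ENSMUSG00000020641), was at 384, 456 and 584 CPM in TBK1-cKD after R837 and at 181, 182 and 233 CPM in IKKe knockout. Every TBK1-cKD library was above every IKKe knockout library, replicate 3 being the highest in each group (1.26 ± 0.23 log2, adjusted p = 0.00113, and 1.30 with adjusted p = 0.00348 without TBK1-cKD replicate 2). Before R837 the order was the opposite, with 30.3, 22.8 and 25.4 CPM in TBK1-cKD and 59.6, 44.9 and 110 CPM in IKKe knockout (-1.43 ± 0.23, adjusted p = 0.000421). The test of the difference between these 2 contrasts gave 2.69 ± 0.33 log2 (adjusted p = 7.76e-05).

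Cxcl10, a chemokine that attracts activated T cells (ENSMUSG00000034855), followed the same course. After R837 it was at 125, 174 and 198 CPM in TBK1-cKD and at 58.9, 60 and 76.7 CPM in IKKe knockout, with no overlap (1.35 ± 0.26, adjusted p = 0.00231, and 1.32 with adjusted p = 0.00888 without replicate 2). Untreated levels were 3.42, 1.5 and 1.71 CPM against 6.71, 3.45 and 10.2 CPM, again without overlap and with TBK1-cKD below (-1.55 ± 0.34, adjusted p = 0.00609). The difference between the contrasts was 2.90 ± 0.43 log2 (adjusted p = 0.000431).

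Ifit1, whose product binds viral RNA that lacks a methylated cap (ENSMUSG00000034459), was at 213, 233 and 331 CPM in TBK1-cKD and at 123, 120 and 150 CPM in IKKe knockout after R837 (0.99 ± 0.21, adjusted p = 0.00486). Untreated cells had 18.4, 10.4 and 14.5 CPM against 44.1, 29.5 and 59.5 CPM (-1.59 ± 0.22, adjusted p = 9.03e-05). The groups did not overlap in either condition. Cmpk2, a mitochondrial nucleotide kinase gene beside Rsad2, was at 293, 294 and 440 CPM against 137, 154 and 167 CPM after R837 (1.17 ± 0.24, adjusted p = 0.004), and it too was lower in untreated TBK1-cKD (-1.33, adjusted p = 0.00184). Ifit2 and Ifit3, close relatives of Ifit1, were higher by 1.03 ± 0.23 each after R837 (adjusted p = 0.00706 and 0.00606) and lower by -1.71 and -1.82 untreated (adjusted p = 7.08e-05 and 3.89e-05). Rsad2, Cxcl10, Cmpk2 and these 3 Ifit genes kept their call under each of the alternatives run.

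The 6 interferon lists (interferon signalling factors, IFIT and IFITM genes, OAS, Mx and viperin genes, the ISG15 system and IFI genes, RNA and DNA sensors, and guanylate-binding proteins with immunity-related GTPases) hold 114 genes, of which 105 were tested. In untreated cells 71 of the 105 were lower in TBK1-cKD and 0 higher, where 474 of all genes were lower (3.23%), 332 higher (2.26%) and 806 called (5.49%). Their median was -0.74 log2, against 0.0 over all genes. After R837, 22 were higher and 7 lower, beside 3.75% higher and 3.35% lower over all genes. Their median was 0.22 against -0.02 over all genes, and 76 of the 105 had a positive value. The difference of the R837 responses was called in 60 of them upward and in 1, Ifitm1, downward. Over all genes 257 were called for that difference (1.75%), with 200 higher (1.36%) and 57 lower (0.388%). The median difference was 1.0 log2 in the lists and -0.02 over all genes. Without TBK1-cKD replicate 2 the counts after R837 were 17 higher and 6 lower. The nuclear RNA level differed between untreated and treated libraries in both genotypes, and a fit with that level as a term called 1098 genes for the difference of the responses.

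**Figure D2:**
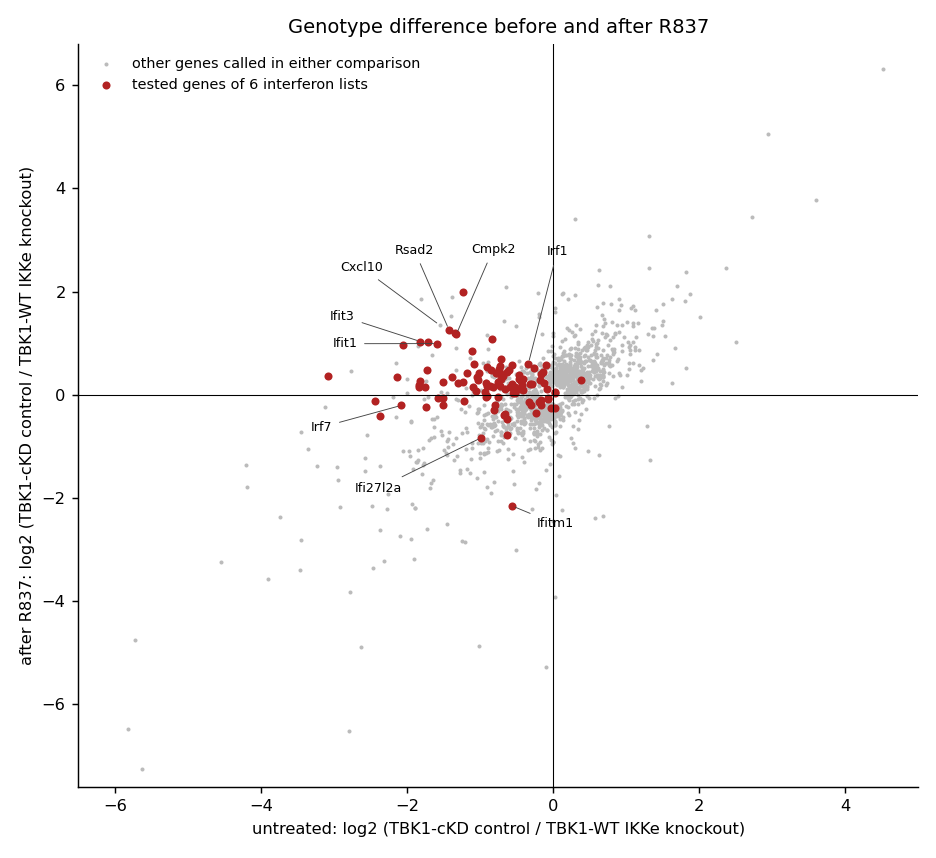
Log2 change (TBK1-cKD over IKKe knockout) in untreated cells on the x axis and after R837 on the y axis, for the 105 tested genes of 6 interferon lists in red and for the other genes called in either comparison in grey, Cxcl10 among them. Of the red points 4 lie right of 0 on the x axis and 76 lie above 0 on the y axis, and Ifitm1 lies far below the others at -2.15 after R837.

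Over the whole table, 379 genes were called both untreated and after R837 (2.58%). In 336 of these the direction was the same (2.29%) and in 43 it was opposite (0.293%). Of the 43, 41 were lower in untreated TBK1-cKD and higher after R837 (0.279%), and 2, Sema4c and P2ry2, went the other way (0.0136%). The interferon lists held 17 of the 41. Outside the lists were, for example, Pml, which encodes the organising protein of nuclear bodies, at 69.8, 87.4 and 95.6 CPM against 56.4, 56.2 and 62.2 CPM after R837 (0.54 ± 0.09, adjusted p = 0.000927) and at -0.43 log2 untreated (adjusted p = 0.006). Daxx, a partner of PML, was similar at 0.46 ± 0.09 after R837 (adjusted p = 0.00229) and -0.42 untreated (adjusted p = 0.00569). Pml and Daxx were chosen after their values were seen.

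Most of the 71 interferon genes that were lower untreated did not turn by call, since 17 did. Irf7, the interferon regulatory factor downstream of TLR7, was at 50.2, 39.4 and 69.2 CPM in untreated TBK1-cKD and at 199, 219 and 267 CPM in untreated IKKe knockout (-2.08 ± 0.19, adjusted p = 4.85e-07). After R837 it was at 179, 250 and 284 CPM against 270, 260 and 296 CPM, the groups overlapped, and the difference of -0.21 ± 0.18 did not pass (adjusted p = 0.598). The change between the contrasts was called at 1.87 ± 0.26 (adjusted p = 0.000276). Iigp1, an interferon-induced GTPase of the vacuole around parasites, had the largest such change of these genes, 3.45 ± 0.34 (adjusted p = 1.38e-05), yet after R837 its 13.6, 14.2 and 21.6 CPM overlapped with 11.8, 12.8 and 13.9 CPM (0.37 ± 0.22, adjusted p = 0.379). Isg15, Usp18, Mx1, Oasl1 and Gbp2, all lower in untreated TBK1-cKD by -0.92 to -1.84 log2, had values from 0.20 to 0.34 after R837, none of them called.

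Irf1, a transcription factor induced by interferon and by NF-kB, was not called in untreated cells (-0.34 ± 0.11, adjusted p = 0.07). After R837 it was at 134, 139 and 151 CPM in TBK1-cKD and at 97.5, 90.8 and 91.1 CPM in IKKe knockout, with no overlap (0.60 ± 0.11, adjusted p = 0.000877). The RNA sensor gene Ifih1, which encodes MDA5, was at 121, 147 and 176 CPM against 102, 103 and 113 CPM (0.49 ± 0.11, adjusted p = 0.00678). Ifi203, of the nuclear DNA-binding IFI200 family, was at 87.3, 98.6 and 113 CPM against 65.6, 68.3 and 72.3 CPM (0.54 ± 0.10, adjusted p = 0.00156). Ddx58, which encodes RIG-I, was called at 0.48 ± 0.12 (adjusted p = 0.0162), but not without TBK1-cKD replicate 3 (0.30, adjusted p = 0.105), IKKe knockout replicate 1 (0.0862) or IKKe knockout replicate 2 (0.0669).

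A smaller set of interferon-inducible genes was lower in TBK1-cKD after R837. Ifitm1, which encodes a membrane protein that restricts viral entry (ENSMUSG00000025491), was at 3.16, 3.35 and 3.42 CPM in TBK1-cKD and at 15.2, 14.2 and 14.9 CPM in IKKe knockout (-2.15 ± 0.19, adjusted p = 4.04e-07). The groups were far apart and tight. Before R837 the gene was at 0.471, 0.606 and 0.569 CPM against 0.614, 0.935 and 0.956 CPM, and the difference was not called (-0.57 ± 0.32, adjusted p = 0.467), while the difference of the responses was (-1.59 ± 0.39, adjusted p = 0.0357). Bst2, which encodes the virus tether tetherin, was at 113, 132 and 135 CPM against 174, 168 and 185 CPM after R837 (-0.46 ± 0.10, adjusted p = 0.00771) and was lower untreated as well (-0.63, adjusted p = 0.000527). Ifi27l2a was at 182, 269 and 203 CPM against 366, 372 and 430 CPM (-0.83 ± 0.17, adjusted p = 0.00369), with -0.99 untreated (adjusted p = 0.000798). Within the IFIT and IFITM list 5 of 11 genes were higher and 4 lower after R837, beside 3.75% and 3.35% over all genes. The 5 were Ifit1, Ifit2, Ifit3, Ifit3b and Ifit1bl1, and the 4 were Ifitm1, Ifitm2, Ifitm3 and Ifitm7. Without TBK1-cKD replicate 2 they were 4 and 3, Ifit3b (adjusted p = 0.0599) and Ifitm2 (0.0718) being the genes lost. Ifit3b lost its call in 5 of the 6 fits without 1 library (up to 0.138), Ifitm2 in 5 (up to 0.0772) and Ifitm3 in 4 (up to 0.0841). Members of the Ifit, Ly6, H2-Q and Gbp families have near-identical copies, between which reads could have been divided in the counting.

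**Figure D3:**
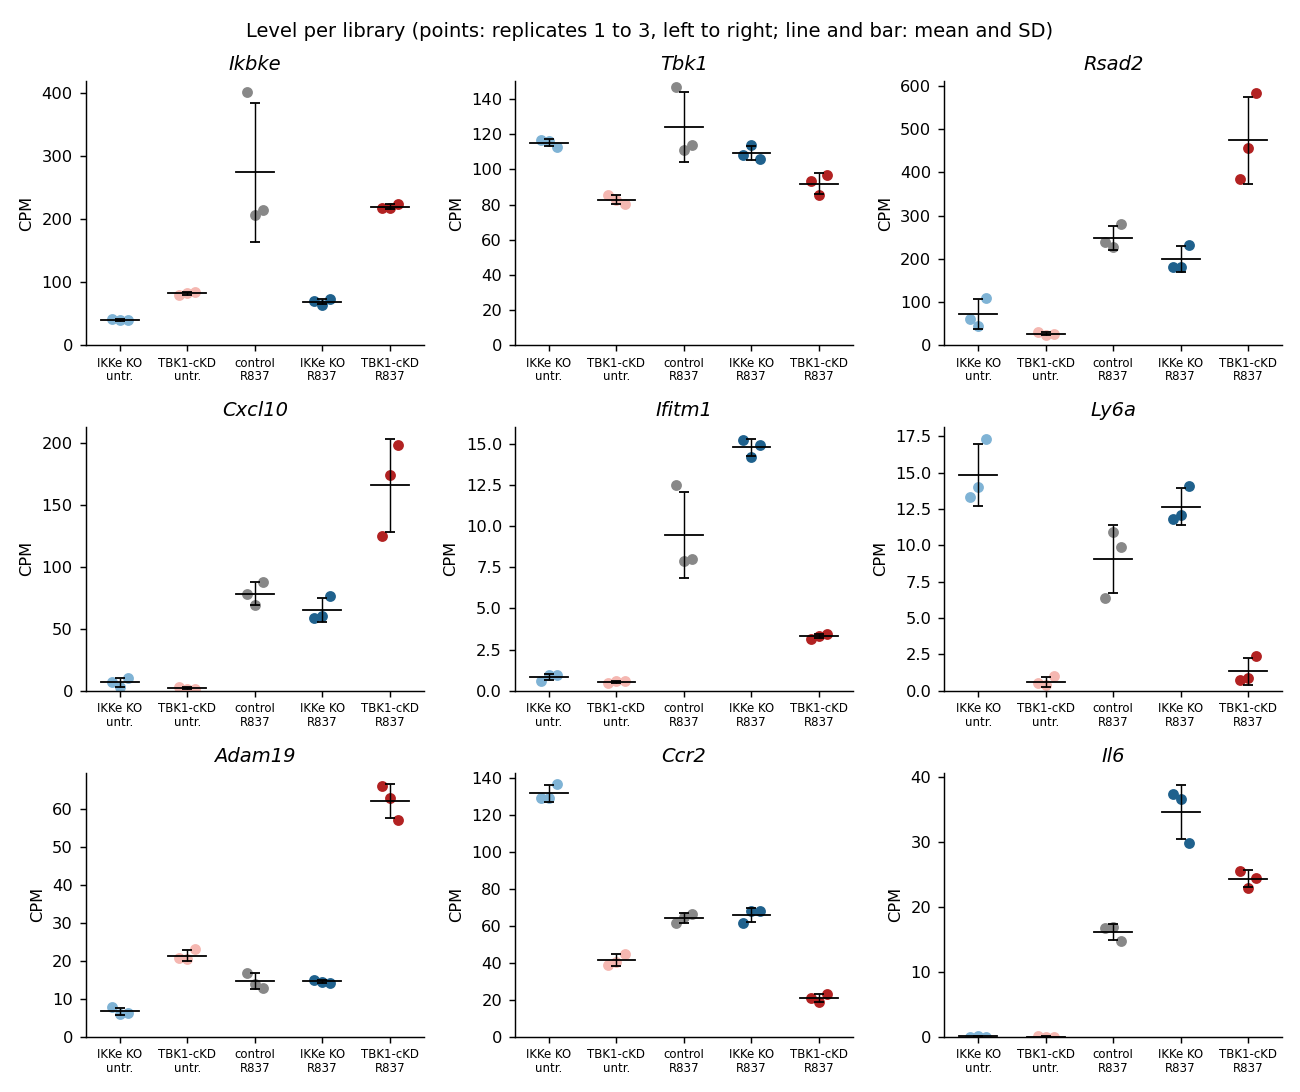
CPM of 9 genes in each library of 5 groups, with points for replicates 1 to 3 from left to right and the mean and SD of 3 libraries as a line and a bar. Groups are untreated (untr.) and R837-treated IKKe knockout (IKKe KO) and TBK1-cKD, with R837-treated TBK1-WT control in grey. Rsad2 and Cxcl10 show TBK1-cKD below IKKe knockout untreated and above it after R837, while Ly6a and Ccr2 are lower in TBK1-cKD in both conditions.

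Genes of largest change were named by a fixed rule, 15 in each direction, with non-overlapping libraries and a mean of at least 1 log2 CPM. Adam19, which encodes a membrane-anchored metalloprotease (ENSMUSG00000011256), led the higher genes. It was at 66.1, 62.9 and 57.2 CPM in TBK1-cKD and at 15, 14.4 and 14.2 CPM in IKKe knockout (2.10 ± 0.09, adjusted p = 4.55e-12), and the same without replicate 2 (2.10). TBK1-WT control cells after R837 had 16.9, 14 and 12.9 CPM, close to IKKe knockout. Untreated TBK1-cKD also had more, 20.6, 20.5 and 23 CPM against 7.71, 6.05 and 6.31 CPM (1.69 ± 0.09, adjusted p = 3.57e-10).

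Other higher genes were of varied kinds. Plau, the urokinase plasminogen activator, was at 46, 33.8 and 34.2 CPM in TBK1-cKD and at 13.9, 16 and 13.1 CPM in IKKe knockout (1.42 ± 0.13, adjusted p = 4.04e-07), far below its untreated means of 1872 and 1095 CPM. Egr2, an immediate early zinc finger factor, was at 14.2, 15.6 and 14.8 CPM against 6.43, 5.75 and 4.95 CPM (1.38 ± 0.12, adjusted p = 2.5e-07). For both genes the direction was the same before treatment (0.80 and 0.71 log2, adjusted p = 0.000135 and 0.00015). Hmga2, a chromatin architecture gene 1.19 Mb from Tbk1, was at 6.08, 4.31 and 5.64 CPM against 2.29, 2.22 and 2.64 CPM (1.19 ± 0.10, adjusted p = 3.26e-07). Lims2, Adamts1, Serpinb9b, Ryk, Gspt2, Bsn and Pomgnt2 were higher by 1.20 to 1.72 log2. Pomgnt2 rested most on TBK1-cKD replicate 2, with 3.83, 10.9 and 3.83 CPM, and its change was 0.58 without that library (adjusted p = 0.0279) in place of 1.22, and not called without IKKe knockout replicate 3 (adjusted p = 0.0542).

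**Figure D4:**
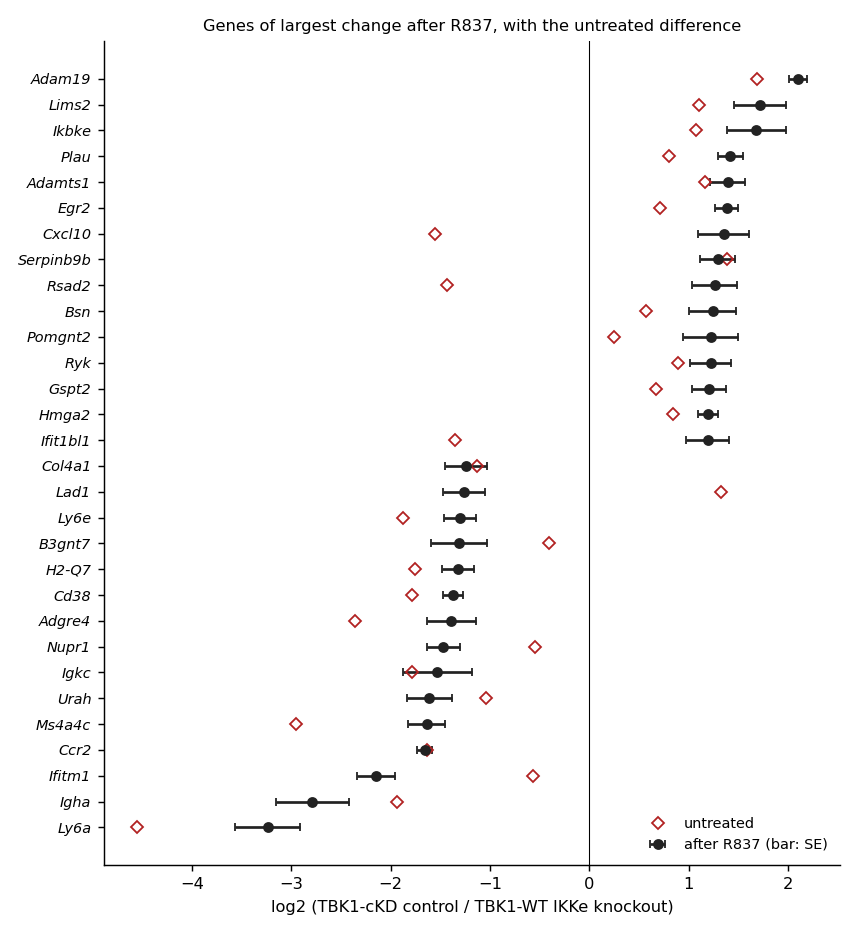
Log2 change (TBK1-cKD over IKKe knockout) of the 15 genes of largest change in each direction after R837, as black points with the standard error, and the untreated change of the same genes as red diamonds. Most diamonds lie on the side of their black point, whereas those of Cxcl10, Rsad2 and Ifit1bl1 lie left of 0 and that of Lad1, a gene at 0.0404 and 0.0164 CPM untreated, lies right of 0.

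Ly6a, which encodes the surface antigen Sca-1 (ENSMUSG00000075602), led the lower genes. It was at 0.717, 0.912 and 2.36 CPM in TBK1-cKD and at 11.8, 12.1 and 14.1 CPM in IKKe knockout after R837 (-3.24 ± 0.33, adjusted p = 2.36e-06). The untreated gap was of the same kind, 0.521, 0.364 and 1.02 CPM against 13.3, 14 and 17.3 CPM (-4.55 ± 0.37, adjusted p = 1.25e-07). The related gene Ly6e was at 178, 275 and 277 CPM against 565, 555 and 686 CPM after R837 (-1.30 ± 0.16, adjusted p = 2.16e-05). In both conditions all TBK1-cKD libraries were below all IKKe knockout libraries for these 2 genes.

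Ccr2, the receptor by which monocytes follow CCL2 (ENSMUSG00000049103), was at 20.7, 18.5 and 22.9 CPM in TBK1-cKD and at 61.6, 68 and 68.2 CPM in IKKe knockout (-1.66 ± 0.08, adjusted p = 7.4e-11). The untreated difference was of the same size, -1.64 ± 0.08, and the difference of the responses was -0.02 ± 0.11 (adjusted p = 0.987). Its ligand gene Ccl2 was higher in TBK1-cKD at 161, 221 and 190 CPM against 126, 140 and 141 CPM (0.50 ± 0.12, adjusted p = 0.0124), with 0.61 untreated (adjusted p = 0.00259). The call after R837 was lost without TBK1-cKD replicate 2 (0.38, adjusted p = 0.0858) or IKKe knockout replicate 1 (0.0702). Cd38, an ectoenzyme that consumes NAD, was at 193, 185 and 203 CPM against 509, 506 and 489 CPM (-1.37 ± 0.10, adjusted p = 3.11e-08), with -1.79 untreated (adjusted p = 7.54e-05). Axl, a receptor kinase for the uptake of dying cells, was at 134, 110 and 142 CPM against 285, 292 and 292 CPM (-1.16 ± 0.15, adjusted p = 2.73e-05). Axl was chosen after its values were seen. Ms4a4c, Nupr1, Urah, Adgre4, B3gnt7, Lad1 and Col4a1 were lower by -1.24 to -1.64 log2.

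The list of MHC class I presentation, the machinery that displays peptides to CD8 T cells, had 6 of 22 tested genes lower and 0 higher after R837 (median -0.11), and 12 lower and 0 higher untreated (median -0.36), beside 3.35% and 3.23% of all genes lower. Without TBK1-cKD replicate 2 the count after R837 was 4. H2-Q7 was at 10.4, 13.8 and 11.7 CPM against 29.4, 29.1 and 31.5 CPM (-1.32 ± 0.16, adjusted p = 1.54e-05), and H2-Q6 at 10, 8.72 and 13.9 CPM against 27.1, 22 and 21.1 CPM (-1.09 ± 0.14, adjusted p = 3.33e-05). The classical heavy chain gene H2-K1 differed less, at -0.34 ± 0.09 (adjusted p = 0.0173), and lost its call without TBK1-cKD replicate 1 (0.0641), IKKe knockout replicate 1 (0.0753) or IKKe knockout replicate 3 (0.0636).

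Cytokines and chemokines did not move as 1 group. Of 23 inflammatory cytokine genes 2 were higher and 5 lower (median -0.38), and 1 and 2 without TBK1-cKD replicate 2, beside 3.75% higher and 3.35% lower over all genes. Il10, an inhibitor of macrophage activation, was at 9.83, 12.7 and 11.2 CPM in TBK1-cKD and at 18.4, 18.1 and 19.8 CPM in IKKe knockout (-0.74 ± 0.10, adjusted p = 9.96e-05). Ebi3, the shared subunit of IL-27 and IL-35, was at 250, 280 and 260 CPM against 405, 383 and 391 CPM (-0.57 ± 0.10, adjusted p = 0.000951). Both genes were lower in TBK1-cKD in every library and kept their call without replicate 2.

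Il6 was at 25.6, 23 and 24.5 CPM in TBK1-cKD, at 37.4, 36.7 and 29.9 CPM in IKKe knockout and at 16.8, 16.9 and 14.8 CPM in TBK1-WT control (-0.50 ± 0.13 between the knockouts, adjusted p = 0.0207). Both knockouts were above the control, and the IKKe knockout libraries were the highest. The call was lost without TBK1-cKD replicate 2 (-0.46, adjusted p = 0.0757), IKKe knockout replicate 1 (0.109) or IKKe knockout replicate 2 (0.0933). Il1b had the same order, 2115, 2151 and 2116 CPM against 2870, 2898 and 2559 CPM, with 1715, 1562 and 1459 CPM in TBK1-WT control, and its difference of -0.38 ± 0.12 missed the threshold (adjusted p = 0.0545, 4.52e-06 to 0.181 over the alternatives). Tnf was at 208, 207 and 198 CPM against 182, 165 and 176 CPM (0.24 ± 0.07, adjusted p = 0.0497), with 0.36 untreated (adjusted p = 0.00402). Each of the 6 fits without 1 library ended the call after R837 (adjusted p = 0.0624 to 0.195). Nos2, the inducible nitric oxide synthase, was at 233, 300 and 352 CPM against 417, 364 and 352 CPM and was not called (-0.35 ± 0.12, adjusted p = 0.0904).

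Of 13 CC chemokine genes 1 was higher and 2 lower, and of 12 CXC chemokine genes 2 were higher and 1 lower, beside 3.75% and 3.35% over all genes. Ccl5, which attracts T cells and monocytes, was at 441, 433 and 463 CPM against 898, 679 and 805 CPM (-0.83 ± 0.19, adjusted p = 0.00785, and 0.0523 without IKKe knockout replicate 1). Ccl22 was at 49.8, 51 and 58.6 CPM against 82.7, 95.3 and 108 CPM (-0.83 ± 0.18, adjusted p = 0.0062). Cxcl14 was at 38, 40.7 and 34.8 CPM against 20.5, 21.5 and 19.6 CPM (0.88 ± 0.11, adjusted p = 3.04e-05), with 0.80 untreated (adjusted p = 5.81e-05). Ccl3, Ccl4 and Cxcl1, ligands of inflammatory chemokine receptors, were between -0.05 and -0.16 log2 and not called, so Ccl5 and Cxcl10, both interferon-inducible, were on opposite sides while these lay between them.

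The NF-kB list, with its subunits, inhibitors and feedback genes, had 4 of 23 genes lower and 0 higher (median -0.08), and the same counts without replicate 2, beside 3.35% lower over all genes. Nfkbiz, which encodes the nuclear cofactor IkBz that Il6 transcription needs, was at 393, 436 and 391 CPM against 559, 543 and 544 CPM (-0.43 ± 0.08, adjusted p = 0.00132), with -0.64 untreated (adjusted p = 4.63e-05). Traf1 and Bcl3 were lower by -0.34 ± 0.07 and -0.28 ± 0.06 (adjusted p = 0.00271 and 0.00728). Nfkbia, the gene of the inhibitor IkBa, was at 703, 759 and 695 CPM against 844, 834 and 819 CPM (-0.21 ± 0.06, adjusted p = 0.0499), a call that ended in 5 of the 6 fits without 1 library (adjusted p = 0.0909 to 0.158) and held without TBK1-cKD replicate 2 (0.0445). Tnfaip3 and Relb did not pass (-0.07 ± 0.07 and 0.04 ± 0.07).

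Immediate early genes and feedback genes of the MAP kinases, taken as 1 list, went both ways, 3 higher and 3 lower of 27, beside 3.75% and 3.35% over all genes. Dusp2, a nuclear phosphatase of ERK and p38 (ENSMUSG00000027368), was at 27.2, 34.5 and 28.5 CPM in TBK1-cKD and at 64.6, 70.4 and 69.6 CPM in IKKe knockout (-1.18 ± 0.10, adjusted p = 1.34e-07). It was level before R837 at 2.58, 2.99 and 2.52 CPM against 2.82, 2.22 and 2.55 CPM, and the difference of the responses was -1.28 ± 0.16 (adjusted p = 0.000122). TBK1-WT control cells lay in between with 44.8, 44 and 47.1 CPM. Dusp4 was on the other side at 63.2, 50.5 and 53.9 CPM against 35.2, 34.7 and 31.7 CPM (0.73 ± 0.09, adjusted p = 1.69e-05), with 0.58 untreated (adjusted p = 0.00015). Hif1a, the oxygen-regulated factor of glycolytic genes, was at 517, 542 and 558 CPM against 696, 689 and 649 CPM (-0.33 ± 0.05, adjusted p = 0.000228). It was the one called of 29 glycolysis and HIF1 target genes, beside 7.1% called over all genes. On the 6 libraries alone 5 of the 29 were called lower and 0 higher.

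Targets of NRF2, the transcription factor that counters oxidative stress, were called in 9 of 20 genes, all higher in TBK1-cKD (median 0.27), and in 8 without replicate 2, beside 3.75% higher over all genes. Untreated, 6 were higher and 0 lower, beside 2.26% and 3.23% over all genes. Srxn1, which restores oxidised peroxiredoxins, was at 457, 391 and 438 CPM against 332, 316 and 308 CPM (0.43 ± 0.06, adjusted p = 0.000126). Prdx1, a peroxiredoxin, was at 1517, 1229 and 1547 CPM against 980, 1059 and 974 CPM (0.52 ± 0.10, adjusted p = 0.00207), and Nfe2l2, the gene of NRF2 itself, at 442, 436 and 439 CPM against 392, 372 and 360 CPM (0.23 ± 0.05, adjusted p = 0.00333). None of these 3 overlapped between the groups.

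Among 12 tested targets of LXR, the sterol-sensing nuclear receptor, 5 were higher and 1 lower, with and without replicate 2, beside 3.75% and 3.35% over all genes. Abcg1, a cholesterol exporter, was at 57.1, 72.8 and 78.6 CPM against 35.4, 33.9 and 40.7 CPM (0.93 ± 0.09, adjusted p = 1.15e-06). Its untreated levels were 248, 224 and 233 CPM against 234, 222 and 216 CPM (0.10 ± 0.09, adjusted p = 0.779), and the difference of the responses was 0.83 ± 0.13 (adjusted p = 0.000544). Abca1, the exporter that loads apolipoprotein A-I, was higher by 0.36 ± 0.06 (adjusted p = 0.00099) and Scd1, a fatty acid desaturase at 4.46, 4.56 and 4.72 CPM against 2.12, 2.5 and 1.69 CPM, by 1.13 ± 0.21 (adjusted p = 0.00123). Apoe was the member that went down, at 1246, 1425 and 1166 CPM against 1759, 1669 and 1748 CPM (-0.43 ± 0.10, adjusted p = 0.00706).

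Genes associated with osteoclasts, bone-resorbing relatives of macrophages, were higher in 5 of 10 cases untreated, beside 2.26% over all genes. After R837, 4 of the 10 were higher (median 0.28, 3 without replicate 2), beside 3.75% over all genes. They were Atp6v0d2, Mmp9, Ctsk and Dcstamp, the last of which lost its call without TBK1-cKD replicate 2 (0.0949), IKKe knockout replicate 1 or IKKe knockout replicate 3 (highest adjusted p = 0.121). Mmp9, gelatinase B, was at 987, 1081 and 1057 CPM against 696, 636 and 626 CPM (0.68 ± 0.10, adjusted p = 0.000101), with 1.37 untreated (adjusted p = 2.22e-08). Mmp9 was also called for the difference of the responses, at -0.69 ± 0.14 (adjusted p = 0.00677). Its collagenase relative Mmp13 went the other way, 1262, 1316 and 1354 CPM against 2561, 2617 and 2168 CPM (-0.90 ± 0.16, adjusted p = 0.000886). Gpnmb, a glycoprotein of lipid-laden macrophages, was at 7570, 7305 and 7544 CPM against 4514, 4843 and 4372 CPM (0.71 ± 0.11, adjusted p = 0.000332).

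Mlkl, the effector of necroptosis, was called higher in TBK1-cKD at 22.1, 34.5 and 29.9 CPM against 22, 19 and 20.3 CPM (0.50 ± 0.13, adjusted p = 0.0219). The call was lost without TBK1-cKD replicate 2 (0.36, adjusted p = 0.138), and also without TBK1-cKD replicate 3, IKKe knockout replicate 2 or IKKe knockout replicate 3. Of 13 genes of the N4BP1 and mRNA decay list 2 were lower, beside 3.35% over all genes, among them Zfp36l1, a decay factor for AU-rich transcripts, at 17.1, 15.7 and 21.3 CPM against 28.5, 26.4 and 29.6 CPM (-0.64 ± 0.11, adjusted p = 0.000571), with the same direction untreated (-0.64, adjusted p = 0.000257).

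Of 28 genes of ATF4 and the unfolded protein response 4 were lower and 1 higher, beside 3.35% and 3.75% over all genes. Nupr1, a stress-induced chromatin protein gene, was at 11.6, 6.13 and 11.7 CPM against 29.6, 25.3 and 28.4 CPM (-1.47 ± 0.17, adjusted p = 1.14e-05, and -1.25 without TBK1-cKD replicate 2). Sesn2, an inhibitor of mTORC1 signalling, was at 23.6, 20.8 and 27.5 CPM against 37.3, 33.1 and 36.6 CPM (-0.56 ± 0.10, adjusted p = 0.000787). For both genes the groups were clear of each other. Among secreted and metabolic effectors, Edn1, the precursor of endothelin 1, was at 4.12, 3.7 and 4.96 CPM against 8.03, 8.58 and 9.51 CPM (-1.02 ± 0.14, adjusted p = 5.24e-05). Slc7a2, an arginine transporter, was on the other side at 1122, 1056 and 965 CPM against 714, 727 and 621 CPM (0.61 ± 0.11, adjusted p = 0.0014), with 1.09 untreated (adjusted p = 5.3e-06).

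**Figure D5:**
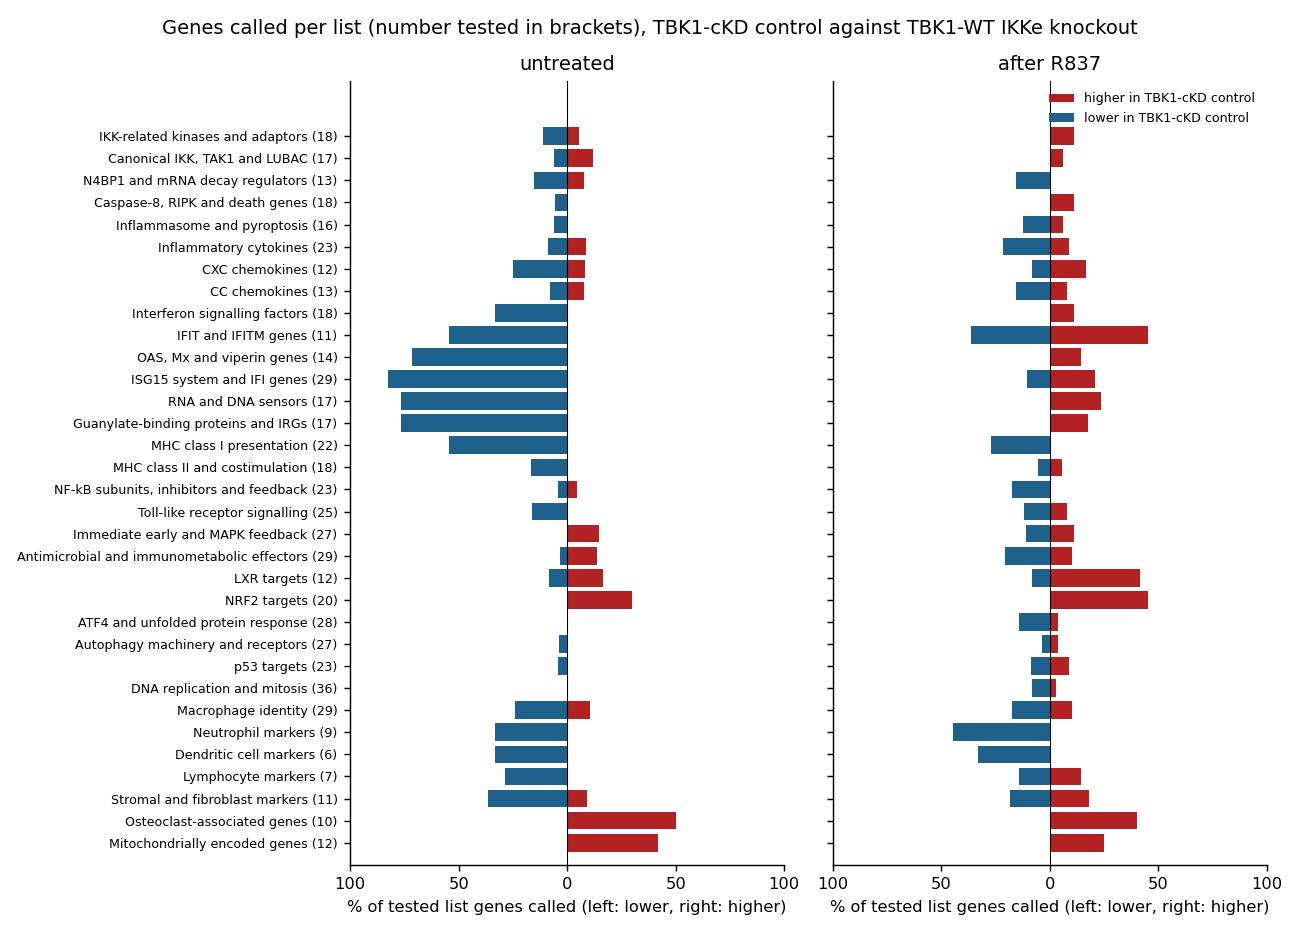
Share of the tested genes of each list that were called higher (red, right) or lower (blue, left) in TBK1-cKD than in IKKe knockout, untreated in the left panel and after R837 in the right panel, for lists with at least 5 tested genes and at least 3 calls over both conditions. The interferon lists reach far to the left untreated and mostly to the right after R837, and the NRF2 targets lie on the right in both panels.

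Some neutrophil markers and several immunoglobulin genes, all at low levels, were lower in TBK1-cKD, and other genes of these cells were not. Of 8 neutrophil markers 6 were tested, and 0 were called higher and 4 lower, beside 3.75% and 3.35% over all genes. Their summed level was nevertheless 24.4 to 40 CPM in TBK1-cKD and 28.9 to 32.5 CPM in IKKe knockout. S100a8 made up most of it and was not called (0.07 ± 0.17, adjusted p = 0.882). S100a9, its partner in calprotectin, had 3, 0 and 9 counts in TBK1-cKD and 62, 61 and 57 in IKKe knockout. Ltf, which encodes lactoferrin, had 0 counts in all 3 TBK1-cKD libraries and 12, 3 and 14 in IKKe knockout, or 9.38-fold lower with a floor of 3 counts over the group. That value includes the depth of TBK1-cKD replicate 2, in which low counts were scarce, and would be smaller without that library. The immunoglobulin heavy chain gene Igha was at 3.16, 1.52 and 2.32 CPM against 18.1, 17 and 15.5 CPM (-2.79 ± 0.37, adjusted p = 5.24e-05), and Igkc at 3, 6.89 and 3.01 CPM against 11.5, 10.9 and 13.7 CPM (-1.53 ± 0.35, adjusted p = 0.00817), both of them lower untreated as well. Other immunoglobulin genes, chosen after their values were seen, were also lower. Iglc1 had 15, 0 and 17 counts in TBK1-cKD and 93, 116 and 95 in IKKe knockout. Iglv1 had 1, 0 and 2 counts against 29, 32 and 40, and Jchain 35, 0 and 45 against 94, 121 and 83. Igkv8-27 had 0 counts in all 3 TBK1-cKD libraries and 9, 5 and 35 in IKKe knockout. Ighm, another heavy chain gene, overlapped between the groups at 3.37, 4.31 and 4.75 CPM against 3.46, 3.25 and 4.43 CPM (0.15 ± 0.26, adjusted p = 0.826). Il7r, the interleukin 7 receptor gene on the same list of lymphocyte markers, was higher at 62.2, 63 and 63.5 CPM against 35.4, 39.4 and 36.9 CPM (0.76 ± 0.07, adjusted p = 1.15e-06). Cd8a, also on that list, was lower at 0, 0 and 2 counts against 9, 10 and 17 (-3.92 log2, adjusted p = 0.00371). That call was not made on the 6 libraries alone. In bulk RNA, fewer cells of a type and less RNA per cell cannot be told apart. The lymphocyte markers Cd3e and Nkg7 and the erythroid markers Hba-a1, Hbb-bs and Alas2 were at 0 in all 6 libraries. Summed stromal markers were 21.3 to 29.1 CPM against 28 to 38.3 CPM and summed dendritic cell markers 0.558 to 2.13 CPM against 1.76 to 1.93 CPM, with 0 of 5 and 1 of 3 tested genes called, beside 7.1% over all genes. Their part in the other results was not tested.

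TBK1-WT control cells after R837 place each loss separately. Since both knockouts are set against the same 3 control libraries, the 2 columns of values below are not independent. Against that control 1305 genes were called in TBK1-cKD (8.89%) and 272 in IKKe knockout (1.85%), or 774 and 167 without control replicate 1, the library of high nuclear RNA level. When the 6 libraries of each contrast were fitted alone, the counts were 40 and 19. Adam19 was at 2.15 log2 in TBK1-cKD (adjusted p = 2.71e-12) and at 0.05 in IKKe knockout (adjusted p = 0.792). Ccr2 was at -1.57 (adjusted p = 2.17e-10) and 0.09 (adjusted p = 0.572), and Ly6a at -2.70 (adjusted p = 2.97e-05) and 0.54 (adjusted p = 0.384). For these 3 genes IKKe knockout did not pass the threshold against the control.

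Rsad2 was at 1.0 in TBK1-cKD against control (adjusted p = 0.0072) and at -0.26 in IKKe knockout (adjusted p = 0.573), and Cxcl10 at 1.14 (adjusted p = 0.00814) and -0.21 (adjusted p = 0.709). Ifit1 passed in neither, at 0.60 (adjusted p = 0.0787) and -0.39 (adjusted p = 0.405). Of the 105 interferon genes 12 were higher and 2 lower in TBK1-cKD than in control (median 0.08, with 657 of all genes higher, 4.48%, and 648 lower, 4.41%), and 4 and 1 in IKKe knockout (median -0.15, with 168 of all genes higher, 1.14%, and 104 lower, 0.708%), beside medians of -0.03 and -0.01 over all genes. Several genes were called on opposite sides of the control. Dusp2 was at -0.53 (adjusted p = 0.00112) and 0.65 (adjusted p = 0.00038), Cd38 at -0.75 (adjusted p = 5.93e-05) and 0.62 (adjusted p = 0.000905), Abcg1 at 0.47 (adjusted p = 0.00166) and -0.45 (adjusted p = 0.00747), and Egr2 at 0.84 (adjusted p = 8.1e-05) and -0.54 (adjusted p = 0.0189). The inflammatory genes Il6, Nos2 and Il1b were above control in both, at 0.66, 0.92 and 0.50 in TBK1-cKD and at 1.16, 1.27 and 0.88 in IKKe knockout, with adjusted p of 0.00968 or less.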

How the data were processed

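The count values deposited by the authors are whole reads for each Ensembl gene, from single-end 50 bp TruSeq v2 libraries. The submitters' processing notes name GSNAP and GRCm38. The sources used here give neither the counter nor its annotation release, and the kit does not mark strand, so overlapping and antisense genes cannot be separated. The RPKM values deposited beside the counts by the authors served to compare levels between genes. Treatment was taken from the titles. Of 52636 identifiers 233 had no symbol (0.019% of counts), and 0 per-sample columns stayed out of use. Coordinates are from GENCODE M21 and promoters from RefSeq.

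All 24 libraries were fitted with 1 mean for each of 8 groups in edgeR 4.0.16 (R 4.3.3): filterByExpr (minimum count 10, total 15; 14681 genes), TMM scaling, quasi-likelihood F test, Benjamini-Hochberg within each of 5 comparisons, threshold 0.05. The fit had 16 residual degrees of freedom and a common biological coefficient of variation of 0.116. A standard error is the log2 change over the square root of F. CPM divide each count by the library's gene count sum without TMM scaling, so CPM ratios and fitted changes differ. The log2 CPM behind correlations, nuclear RNA levels, counts of non-overlapping genes and the level rule were TMM-scaled, over tested genes, with an offset of 0.5. The scripts were tested on simulated data. Alternatives were DESeq2 1.42.0, limma 3.58.1 voom with sample weights, other scalings, filters and sample sets, and leaving out each library.

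Genes named were 12 fixed ones, the 15 of largest change in each direction (adjusted p under 0.05, libraries not overlapping, at least 1 mean log2 CPM, a gene symbol that is no clone name), up to 4 called members of smallest p in each of 40 lists with 1 of the opposite direction, and the 6 of smallest p in each direction for the difference of the responses. Others named illustrate list members, or are said to be chosen after their values were seen. The comparison, the lists and the genes were chosen with earlier results of these data known. Libraries held 19.7 to 41.3 M gene counts, and counting intervals would cover counting error only. Some results are not reported here.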

Additional observations from a re-analysis of the deposited data

Results flagged for a closer look

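The contrast of TBK1-cKD over IKKe knockout was called different between R837-treated and untreated cells, by the interaction term of the fit, in 257 genes. Those named by rule were, on the log2 scale, Iigp1 at 3.45, Ifi206 at 3.22, Ifit3 at 2.85, Ifi203 at 1.45, Ifi211 at 1.32 and Sema4d at 0.76 upward, and Dusp2 at -1.28, Rnd1 at -0.99, Stard7 at -0.92, P2ry2 at -0.63, Jdp2 at -0.52 and Hif1a at -0.43 downward. Sema4d, which encodes a semaphorin, was at 263, 246 and 275 CPM in TBK1-cKD and at 176, 173 and 179 CPM in IKKe knockout after R837, while its untreated levels were 470, 452 and 445 CPM against 538, 519 and 524 CPM. Stard7, a lipid transfer protein gene next to Dusp2 on chromosome 2, was at 159, 168 and 181 CPM against 306, 332 and 325 CPM after R837 and at 62.6, 60 and 54.6 CPM against 61.4, 58.3 and 60.7 CPM untreated. Without TBK1-cKD untreated replicate 2 the number of genes called for this difference was 162.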

How the results depend on the processing

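No paired analysis was run, because the titles carry no replicate number and no label ties libraries of different groups to a mouse. The records do list all 8 groups in the same order, 1 block after another, but no label says that a block is 1 mouse. All libraries were therefore treated as independent, and any sharing of mice between groups was not modelled. Counts of called genes depended on the fit. For the contrast after R837 (1042 genes) the count was 2113 with limma voom, 2473 with a term for nuclear RNA level, 2269 without the 2 R837 libraries of high nuclear RNA level, 375 on the 12 R837 libraries alone, 1912 on 5 libraries without TBK1-cKD replicate 2 (chosen after seeing the data), and 656 to 1093 when 1 library was left out. Untreated (806) it was 2852 with voom, 2365 with the term, 1938 without the 2 libraries, 2246 on 6 libraries alone and 504 to 625 with 1 left out. For the difference of the responses (257) it was 425 with DESeq2, 989 with voom, 1098 with the term, 845 without the 2 libraries and 162 to 296 with 1 left out. Against TBK1-WT control, TBK1-cKD (1305) gave 40 on 6 libraries alone and 774 to 1729 with 1 left out. IKKe knockout (272) gave 461 with DESeq2, 975 with voom, 565 with the term, 19 on 6 libraries alone and 125 to 356 with 1 left out. Apart from the size of the gene sets and samples fitted, the cause was not tested.

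Of 135 named genes called after R837, 70 kept call and direction under every alternative, 65 lost the call under at least 1 and 0 reversed. The 12-library fit lost 57 of 133, and leaving out TBK1-cKD replicate 2 lost 22. Upper-quartile and RLE scaling lost 7 and 4, and DESeq2 lost 0. In the interferon lists the 22 higher and 7 lower genes became 29 and 8 with DESeq2, 19 and 9 on 6 libraries alone, and 37 and 12 without the 2 libraries. Genes at few counts, such as S100a9 and Ltf, rest on few reads. In TBK1-cKD replicate 2 low counts were scarce, with 1409 genes at 1 to 5 counts and a sum of 19.7 M. Untreated IKKe knockout replicate 2 had 4391 such genes at a similar 20.3 M. The cause was not tested, and counts of 0 in that TBK1-cKD library are uncertain.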

Other observations

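The surroundings of the kinase genes and 2 transcripts outside the lists were read after their values were seen. Within 5 Mb of Ikbke, 12 of 79 tested genes were called after R837 (15.2%), beside 7.1% over all genes and 10.9% on chromosome 1. They include Il10 at 0.23 Mb, the complement regulator gene Cd55 at 0.82 Mb (6.8, 5.22 and 6.8 CPM in TBK1-cKD against 12.2, 12.3 and 14.2 CPM in IKKe knockout, -1.03 ± 0.19, adjusted p = 0.00122) and Lad1 at 4.56 Mb. Untreated, 3 of the 79 were called (3.8%). Against TBK1-WT control after R837, Il10 was at -0.65 in TBK1-cKD (adjusted p = 0.00037) and at 0.09 in IKKe knockout (adjusted p = 0.659). Lad1 was at -0.81 (adjusted p = 0.017) and 0.45 (adjusted p = 0.332). For these 2 genes it was thus TBK1-cKD that was called against the control. Within 5 Mb of Tbk1, 4 of 41 genes were called after R837 (9.76%), a share near the 7.1% over all genes and the 7.14% on chromosome 10, and within 1 Mb 0 of 11 were called by edgeR. The 4 were Hmga2 and Mdm2, higher, and Helb and Ppm1h, lower. Against the same control, Hmga2 was at 0.41 in TBK1-cKD (adjusted p = 0.00928) and at -0.77 in IKKe knockout (adjusted p = 0.000215). Helb lost its call without TBK1-cKD replicate 2 (adjusted p = 0.127) and Mdm2 without IKKe knockout replicate 2 (0.0565) or IKKe knockout replicate 3 (0.083).

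Gm36888, on chromosome 3 from 147620811 to 147635647, had 11, 17 and 12 counts in TBK1-cKD after R837 and 0, 0 and 1 in IKKe knockout. Its untreated levels were 0.719, 0.687 and 0.651 CPM against 0.128, 0.0985 and 0.0319 CPM. Gm15446, on chromosome 5 from 109923400 to 109943936, had 12, 0 and 13 counts in TBK1-cKD and none in IKKe knockout after R837, with 1.34, 0.93 and 0.935 CPM against 0.0512, 0.0492 and 0.0319 CPM untreated. TBK1-WT control libraries after R837 had 0 to 0.0615 CPM of Gm15446. What sets these transcripts was not tested.

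Of 25 genes of Toll-like receptor signalling 2 were higher and 3 lower in TBK1-cKD after R837, beside 3.75% and 3.35% over all genes. Tlr13 and Tlr3, RNA sensors of the endosome, were the higher ones (0.32 ± 0.08 and 0.38 ± 0.11, adjusted p = 0.0221 and 0.041), and each lost its call in 4 of the 6 fits without 1 library. Tlr9, the endosomal DNA sensor, was at 8.5, 9.58 and 10.5 CPM against 17.3, 15.3 and 19.1 CPM (-0.85 ± 0.12, adjusted p = 7.26e-05), and untreated at 18.4, 15.4 and 19.2 CPM against 49.9, 47.7 and 49.2 CPM (-1.44, adjusted p = 5.63e-08). Ticam2, which encodes the TLR4 adaptor TRAM, was at 36.8, 32.4 and 36.7 CPM against 48.6, 50 and 48 CPM (-0.46 ± 0.06, adjusted p = 5.62e-05) and was not called untreated (-0.12, adjusted p = 0.393). The third lower gene, Tlr5, the flagellin receptor, had 0 counts over the 3 TBK1-cKD libraries and 9 over IKKe knockout, or 2.91-fold lower with a floor of 3 counts over the group. That value includes the depth of TBK1-cKD replicate 2 and would be smaller without that library.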
